A study of Homo sapiens with 48 samples.

Results

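The comparison described here sets a luciferase-carrying subline of 22Rv1 against its parental line in complete serum. 22Rv1 is a human prostate cancer cell line that grows without androgen and serves as a model of castration-resistant disease. The parental cells are named Rv1-WT, and Rv1-Luc was made from them by transduction with a lentivirus that carries firefly luciferase. Whether Rv1-Luc is a pool of transduced cells or 1 clone is not given in the sources used here. Both sublines were kept for 72 hours in medium with fetal bovine serum (FBS), which contains androgens, and with 0.1% DMSO, the vehicle of the Mediator kinase inhibitor SNX631. There were 3 libraries per subline, chosen by their labels, so that 6 of the 48 samples of the series enter the comparison. All 20022 genes that passed the filter on low counts were tested, of 61815 genes in the table. Values of other samples are given where the same pair of sublines was grown in serum stripped of androgens with charcoal (CSS) or with SNX631. Levels are given for 4 lines in which both CDK8 and CDK19 were knocked out (dKO) and 1 kinase, active or inactive, was put back. All 48 libraries entered the fit, so the filter, the scaling and the estimate of the spread draw on them too. The labels number the cultures of a group without saying that they were grown apart. The paper describes its RNA sequencing as done on at least 3 biological replicates per condition. How these were grown apart is not given in the sources used here. The p-values thus measure the spread between libraries within the groups of the whole fit, part of which may be technical.

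Prostate cancer cells of the luminal type rely on androgens, steroid hormones that switch on genes such as the kallikreins, and on enzymes that make and clear these hormones. Cells of 1 named line that have been passaged, transduced or selected apart often differ in their RNA, and such sublines are compared to learn which features of a line are constant. The study compared Rv1-WT with Rv1-Luc in its assays because 22Rv1 cells vary in phenotype.

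The 6 libraries fell apart by subline in ways other than gene levels. The total counts per library were 14.6 to 16.6 M for Rv1-WT and 21.1 to 23.6 M for Rv1-Luc, with no overlap. No label names a preparation or sequencing batch, so library batch cannot be told apart from subline in any value below. The luciferase transgene had 0 counts in each Rv1-WT library and 509 to 538 CPM, that is counts per 1 M counts of the library, in Rv1-Luc. The Rv1-WT replicates differed from each other with a chi-square over its degrees of freedom of 1.90 to 2.01, and the Rv1-Luc replicates with one of 3.20 to 9.68, with the highest value between replicates 1 and 2. Markers of luminal prostate epithelium summed to 3450 to 3489 CPM in Rv1-WT and 3670 to 3733 CPM in Rv1-Luc. Of these 10 markers 1 was called higher, KRT8, and 1 lower, beside 17.8% called among all genes tested, so the sum does not describe each marker. Of 6 basal markers, KRT14 was at 0 in all 6 libraries, neither KRT5 nor TP63 exceeded 0.12 CPM, and NGFR was not called. The keratin KRT15 was called higher, with the counts given below, and the cytoskeletal linker DST lower, at 64.9, 76.1 and 68.9 CPM in Rv1-WT and 38.5, 51.3 and 48.5 CPM in Rv1-Luc, so that the sum of the 6 was 66.4 to 76.5 CPM against 39.7 to 51.9 CPM. The 4 endothelial markers summed to 0 CPM in Rv1-WT and 0.0838 to 0.227 CPM in Rv1-Luc, with CDH5 and KDR at 0 throughout and PECAM1 and VWF at no more than 3 counts per library. In RNA from whole cultures, fewer cells of a type and less RNA per cell cannot be told apart.

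The sublines differed at many genes. With the false discovery rate held under 0.01 and the fold over 1.5, 1727 genes (8.63% of those tested) were higher and 1835 (9.16%) were lower in Rv1-Luc, or 17.8% in all. Genes were tested by edgeR's quasi-likelihood method with Benjamini-Hochberg adjustment, and a gene past both limits, which are also those of the published work, is called higher or lower throughout. Of the called genes, 2173 differed by at least 2-fold and 743 by at least 4-fold, of which 293 were higher and 450 lower. Among called protein-coding genes 62.8% were lower. The levels of the sublines did not overlap at 55.9% of all genes tested, so a lack of overlap alone marks little. The median log2 fold change of all genes tested was -0.02. Leaving out 1 library at a time gave 3167 to 3602 called genes, and 2462 genes were called in all 6 of those fits. The 6 libraries fitted alone gave 2994 called genes, 1517 higher and 1477 lower. The plot of fold change against level shows the called genes at every level.

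**Figure D1:**
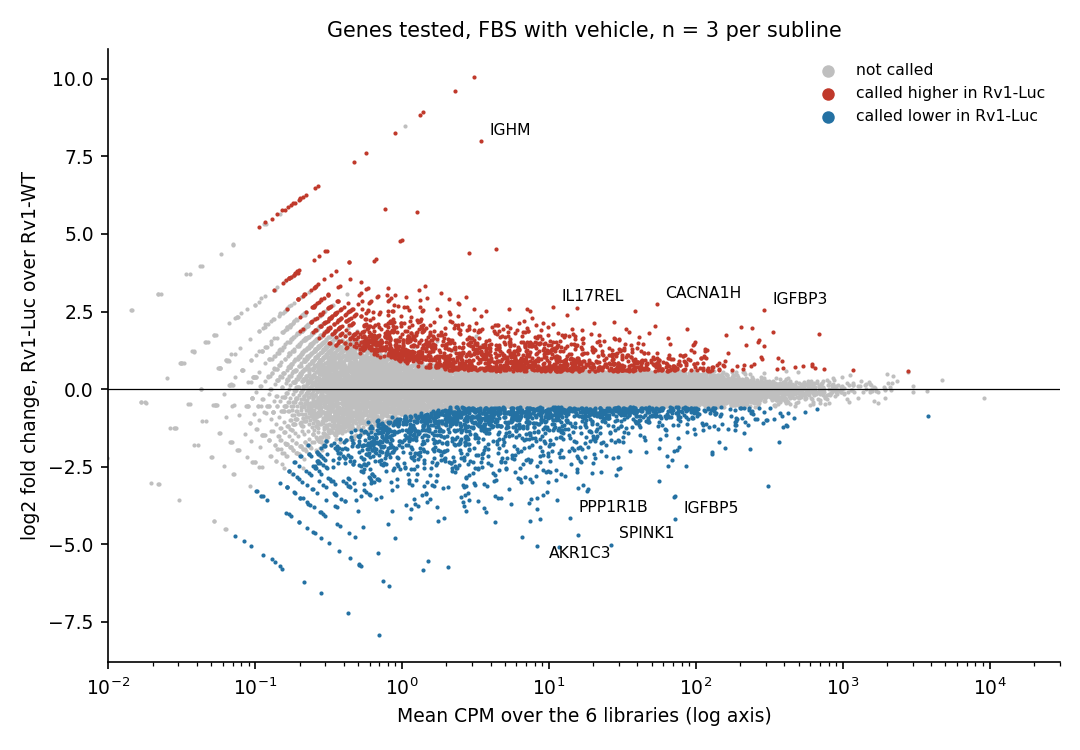
Log2 fold change of Rv1-Luc over Rv1-WT (vertical axis) against the mean CPM of the 6 libraries (horizontal log axis) for genes tested in FBS with vehicle. Some of the 20022 genes tested, such as any without a symbol, are not drawn. Each point is a gene, coloured where called. Of all genes tested 1727 are called higher and 1835 lower, and SPINK1, at -5.01, and CACNA1H, at 2.75, are among the labelled genes.

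The decreases chosen for their size were in genes with low levels in Rv1-Luc. The 12 lowest were picked among genes with a mean of at least 5 CPM in the higher subline that were called in the same direction with SNX631 and in CSS as well. SPINK1 (GRCh38 chr5:147824568-147831786), a secreted trypsin inhibitor known from a subset of prostate cancers, was at 49.7, 50.7 and 53.6 CPM in the Rv1-WT libraries and at 1.74, 1.63 and 1.36 CPM in the Rv1-Luc libraries. Every Rv1-WT library thus lay far above every Rv1-Luc library, with a log2 fold change of -5.01 (SE 0.11, adjusted p = 9.08e-35). SCUBE2 (chr11:9019498-9138114), which releases Hedgehog ligands from cells, had the lowest value of the 12, -5.05, from 15.9, 15.3 and 17.1 CPM to 0.364, 0.587 and 0.499 CPM. IGFBP5 (chr2:216672105-216695525), which binds insulin-like growth factors, was the most abundant of them, at 146, 132 and 133 CPM against 8.22, 7.67 and 6.49 CPM (log2 fold change -4.19, SE 0.096). The other members were AKR1C3 and AKR1C2, described below with the androgen enzymes, GASK1B, a Golgi kinase family member (-4.78), ELMO1, an adaptor in Rac activation (-4.25), CFC1, a Nodal co-receptor (-4.20), PPP1R1B, a phosphatase inhibitor also called DARPP-32 (-4.16), RTN1, a reticulon (-3.97), DDX53, a cancer-testis helicase (-3.94), and SLC22A3, an organic cation transporter (-3.87).

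The same 12 genes were also low in the 4 dKO lines, which carry no label that ties them to Rv1-Luc. The paper describes all 4 as derived from the same knockout line. Their low levels may thus be shared through that ancestor and do not count as 4 separate observations. In FBS with vehicle the means of the 4 lines were 1.71 to 4.50 CPM for IGFBP5 and 0.749 to 3.81 CPM for PPP1R1B, and no other gene of the 12 exceeded a mean of 0.439 CPM in any of them. DDX53 and SLC22A3 were at 0 CPM in all 4. Of these lines and sublines, Rv1-WT had the highest mean of each of the 12 genes. No test was made, since the lines differ in their kinases.

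CACNA1H (chr16:1153121-1221772), a T-type calcium channel subunit, had the highest log2 fold change of the genes chosen by the same rule after the immunoglobulin gene IGHM, given with its counts below. It was at 14.5, 14.1 and 13.6 CPM in Rv1-WT and at 101, 86.4 and 96.1 CPM in Rv1-Luc, a log2 fold change of 2.75 (SE 0.088, adjusted p = 4.33e-32). IGFBP3 (chr7:45912245-45921874), another binder of insulin-like growth factors, was at 82.3, 88.2 and 84.1 CPM against 674, 342 and 476 CPM (2.55, SE 0.23). These 2 binding proteins of that family thus differed in opposite directions, IGFBP5 lower and IGFBP3 higher. BASP1 (chr5:17065598-17276843), a membrane-associated protein that can act as a WT1 co-repressor, was at 10.3, 10.4 and 13.6 CPM against 74.2, 56.2 and 66.7 CPM (2.53, SE 0.13). PSCA, the prostate stem cell antigen on the cell surface, was at 3.41, 2.81 and 5.97 CPM against 24.4, 9.85 and 17.4 CPM (2.09, SE 0.24), and its Rv1-Luc libraries spread by more than those of the genes just named. The remaining genes were IL17REL, related to interleukin-17 receptors (2.65), the antisense RNA SH3BP5-AS1 (2.39), CDH18, a cadherin (2.36), LINC02986 (2.31), VASN, a TGF-beta binding protein (2.19), ANO9, of the anoctamin membrane proteins (2.12), and GABBR1, a GABA receptor subunit (2.03). PSCA and IL17REL were not called when the 6 libraries were fitted alone (edgeR adjusted p = 0.0246 and 0.0150). In the dKO lines the levels of these genes were mixed: CACNA1H had means of 4.30 to 44.6 CPM and IGFBP3 of 83.5 to 429 CPM.

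A second kind of difference was found in genes with at most 3 counts in every library of 1 subline. There were 166 such genes called higher and 121 called lower in Rv1-Luc. ACKR3, a scavenging chemokine receptor, had 2, 0 and 0 counts in Rv1-WT and 62, 69 and 46 counts in Rv1-Luc, a ratio of CPM of 60.8 (95% exact interval 16.6 to 506, counting error only). NR1H4, the bile acid receptor, went the other way with 38, 42 and 49 counts in Rv1-WT and 0, 2 and 1 counts in Rv1-Luc, a ratio of 62.5 (20.9 to 307). NPY2R, a receptor for neuropeptide Y, had 27, 20 and 30 counts in Rv1-WT and a single count in Rv1-Luc, a ratio of CPM of 112 (19.5 to 4481). The other genes so chosen that were at this low level in Rv1-Luc were the antisense RNA SLC7A14-AS1, the vitamin D-binding protein gene GC, CPN1, a carboxypeptidase subunit, and NSUN7, of a family of RNA methyltransferases. The ACKR3, NR1H4 and NPY2R values rest on at most 69 counts per library.

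Transcripts of antibody genes were found in Rv1-Luc. IGHM, the heavy chain of IgM, had 1, 0 and 0 counts in Rv1-WT and 218, 172 and 101 counts in Rv1-Luc, a ratio of CPM of 338 (95% exact interval 60.3 to 13360). JCHAIN, which joins IgM and IgA units, had 0 counts in each Rv1-WT library and 88, 62 and 40 counts in Rv1-Luc, at least 13.7-fold higher against a floor of 3 counts per library. IGKC, the kappa light chain, had 78, 195 and 53 counts, IGHA1, an IgA heavy chain, 140, 57 and 7 counts, and IGHG1, an IgG heavy chain, 111, 233 and 95 counts in Rv1-Luc, each with 0 counts in Rv1-WT. The order of the Rv1-Luc libraries was not the same for these genes. IGHG1 lost its call in all 6 fits without 1 library, and IGKC in the fit of the 6 libraries alone and in DESeq2. Of 213 immunoglobulin genes 15 were tested and 10 were called higher, and their summed level was 3.18 to 4.00 CPM in Rv1-WT and 29.7 to 61.7 CPM in Rv1-Luc. In the other 3 settings the sum was 9.67 to 56.5 CPM in Rv1-Luc and 3.73 to 5.34 CPM in Rv1-WT. Of the B cell and leukocyte markers, MS4A1 was at 0 in Rv1-WT and at 0.729, 0.461 and 0.409 CPM in Rv1-Luc. PTPRC was at 0, 0.0669 and 0.0649 CPM and 0.486, 0.335 and 0.227 CPM, and both were called higher. CD79A had 1, 1 and 0 counts in Rv1-WT and 8, 5 and 4 counts in Rv1-Luc, and CD3E at most 1 count per library. Of 5 B cell markers 3 passed the filter on low counts, and of 6 T cell and leukocyte markers 2. The rest could not be called. Of 5 erythroid markers 3 were tested. The alpha-globin gene HBA1 was called higher, at 2.88, 1.87 and 1.88 CPM against 4.29, 3.06 and 3.45 CPM, and no other tested marker was called. Its near-identical copy HBA2 was at 1.47, 0.536 and 0.584 CPM against 0.850, 0.671 and 0.635 CPM, and the sum of the 5 overlapped, at 2.73 to 4.76 CPM and 4.15 to 5.38 CPM. The part of other cells' RNA in these values was not tested.

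The lowest p-values marked differences that were large against a small spread. BHLHE41, a circadian repressor, was at 132, 124 and 134 CPM in Rv1-WT and 10.5, 11.9 and 12.6 CPM in Rv1-Luc (-3.48, SE 0.068, adjusted p = 3.66e-44), although 52.1% of libraries held fractional, that is shared, reads for it. CD44 (chr11:35138870-35232402), the hyaluronan receptor of basal and progenitor-like cells, was at 100.1, 98.1 and 100.0003 CPM against 13.8, 11.8 and 12.3 CPM (-2.97, SE 0.066, adjusted p = 7.83e-42). TAGLN2, an actin-binding protein, was at 374, 362 and 372 CPM against 104, 92.5 and 94.3 CPM (-1.93). All 3 genes were lower in each Rv1-Luc library than in any Rv1-WT library, a lack of overlap found at 55.9% of all genes tested. SPOCK1, an extracellular proteoglycan (-2.48), NHSL1, a regulator of lamellipodia (-2.28), PBLD (-1.89) and the pseudogene PPIAP22 (-3.45) were lower as well. RHOF, a small GTPase of filopodia, was higher, at 319.9, 282 and 325 CPM against 1179, 958 and 1040.4 CPM (1.78), with shared reads in 47.9% of libraries. The pair TRGC1 and TARP, which lie in the T cell receptor gamma locus and from which prostate cells are known to make an androgen-dependent transcript, were higher by 1.99 and 2.02. Reads of the 2 overlap, with fractional counts in 97.9% and 93.8% of libraries, so that they count as 1 uncertain observation. AXIN2, chosen by the same rule, is given with its pathway.

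**Figure D2:**
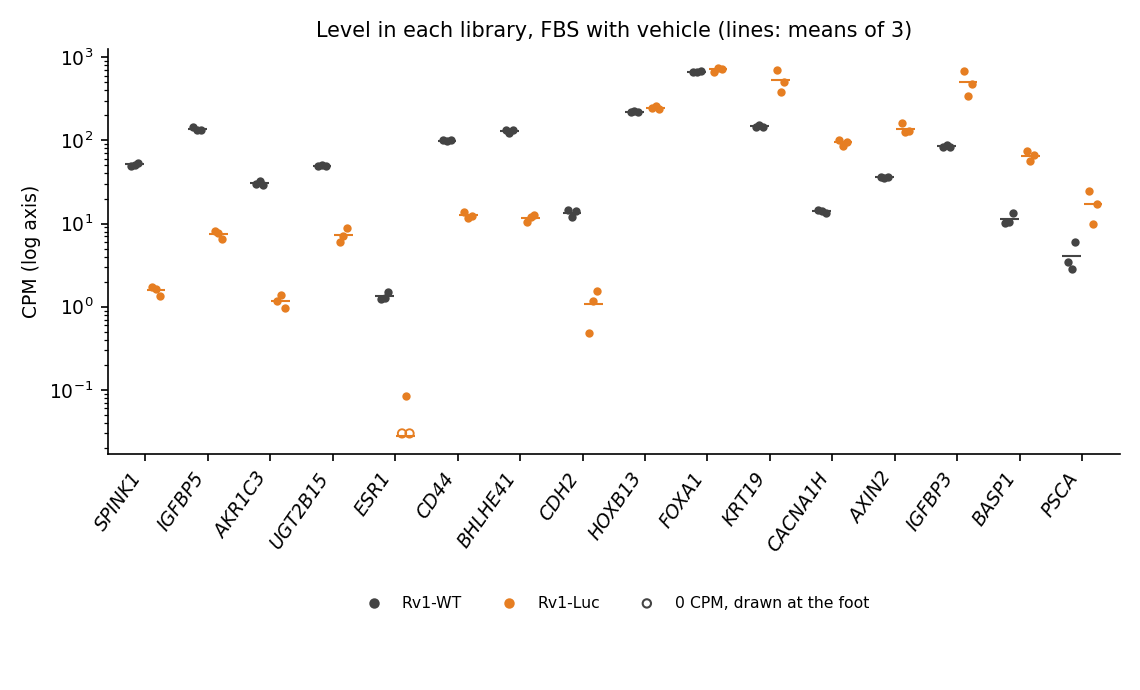
CPM (log axis) in each of the 3 Rv1-WT and 3 Rv1-Luc libraries for 16 genes, with lines at the means and open symbols for 0 CPM. HOXB13 and FOXA1 lie close together in both sublines, at means of 221 ± 3.18 and 248 ± 8.91 CPM (SD, n = 3) for HOXB13, while SPINK1 to CDH2 lie lower in every Rv1-Luc library and KRT19 to PSCA higher.

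Genes known to respond to androgen differed in both directions. Of 23 tested, 3 were called higher and 4 lower, with a median of -0.17. For this list and those below, counts of called genes stand beside 17.8% called among all genes tested. KLK3, which encodes prostate-specific antigen, was at 10.5, 11.6 and 9.93 CPM against 10.5, 7.13 and 8.85 CPM and was not called (-0.27, SE 0.13, adjusted p = 0.0732). TMPRSS2, a surface protease, was at 17.8, 16.9 and 17.5 CPM against 7.12, 7.0001 and 6.04 CPM (-1.37, SE 0.088), and KLK4, another kallikrein, was lower at -1.85, with shared reads in 47.9% of libraries. FKBP5, a co-chaperone of steroid receptors, was lower too (-0.92). SLC45A3, a prostate membrane protein also called prostein, went up from 38.3, 38.1 and 38.6 CPM to 75.9, 72.9 and 71.6 CPM (0.94, SE 0.071), as did SORD, sorbitol dehydrogenase (0.78), and PMEPA1, a brake on TGF-beta signalling (0.65). The list thus held large differences in both directions and no common shift.

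Enzymes that clear or convert androgens were lower in Rv1-Luc, 7 of 13 tested, with none higher and a list median of -1.22. UGT2B15 (chr4:68646630-68670628), which glucuronidates dihydrotestosterone, was at 48.6, 50.1 and 49.8 CPM in Rv1-WT and 5.95, 7.17 and 8.85 CPM in Rv1-Luc (-2.76, SE 0.086, adjusted p = 2.28e-34). AKR1C3 (chr10:5035354-5107686), which reduces androstenedione to testosterone, was at 29.7, 32.5 and 29.5 CPM against 1.17, 1.38 and 0.953 CPM (-4.69, SE 0.13). Its neighbours AKR1C2 and AKR1C1, which inactivate dihydrotestosterone and progesterone, were lower at -4.30 and -3.55. Both enzymes that make and enzymes that clear active androgens were thus among the lower genes. The AKR1C and UGT2B genes are families of close relatives, but their counts were fractional in at most 16.7% of libraries. In the dKO lines UGT2B15 had means of 0.111 to 0.202 CPM and AKR1C3 of 0 to 0.112 CPM. ESR1, the estrogen receptor, was the called member among 8 steroid and related receptors, with 21, 19 and 23 counts in Rv1-WT and 0, 2 and 0 counts in Rv1-Luc, a ratio of CPM of 45.8 (95% exact interval 12.2 to 387).

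Transcription factors of the luminal prostate divided into those that held their level and those that were lower. HOXB13, a homeobox factor of the prostate, was at 218, 224 and 221 CPM against 245, 258 and 240.3 CPM (0.17, SE 0.039), and FOXA1, which opens chromatin for other factors, had a log2 fold change of 0.098 (SE 0.038). Neither passed the fold limit. Of 12 factors 5 were lower and none was higher. Among them were GATA3 (7.35, 7.16 and 6.04 CPM against 1.13, 1.47 and 1.18 CPM), SOX9 (40.5, 37.8 and 40.9 CPM against 7.49, 10.3 and 8.85 CPM), the ETS factor EHF (-1.10) and SPDEF (-0.76). The log2 fold changes of GATA3 and SOX9 were -2.44 and -2.17, with no overlap of the sublines, as at 55.9% of all genes tested.

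Among the lists with calls in 1 direction alone, the amino acid stress response driven by ATF4 held the most called genes; ATF4 is a transcription factor whose translation is raised when amino acids are short. Of 28 tested genes 18 were lower and none was higher, all 28 had a log2 fold change under 0, and the median was -0.79. The share called, 64.3%, stands beside 17.8% of all genes. ATF4 itself was at 692, 669 and 704 CPM against 484, 606 and 569.99 CPM and was under the fold limit (-0.32, SE 0.052). CHAC1, which degrades glutathione, was at 31.04, 25.3 and 32.8 CPM in Rv1-WT and 4.78, 14.3 and 10.5 CPM in Rv1-Luc (-1.60, SE 0.17, adjusted p = 7.06e-10). PCK2, a mitochondrial enzyme of phosphoenolpyruvate synthesis, was at 202, 189 and 208 CPM against 56.1, 111 and 80.03 CPM (-1.28, SE 0.12). SLC7A11, the cystine transporter, was at 192, 173 and 186 CPM against 54.1, 103 and 84.1 CPM (-1.19, SE 0.13), and SESN2, a leucine sensor upstream of mTORC1, was lower at -1.18 (SE 0.10). In the first 3 genes Rv1-Luc replicate 1 had the lowest level and replicate 2 the highest of their subline, and both lay under all Rv1-WT libraries. CHAC1, PCK2 and SLC7A11 were not called when the 6 libraries were fitted alone (edgeR adjusted p = 0.0293, 0.0191 and 0.0193). The list median ran from -0.89 to -0.70 over the fits without 1 library. Genes of serine and one-carbon synthesis were among the lower members, with PHGDH at -0.95, PSAT1 at -0.76, SHMT2 at -0.66 and MTHFD2 at -0.86.

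ATF4 binds a composite element with CEBP partners, for which the letters TGATGNAA on either strand were searched in the RefSeq promoter windows of GRCh38.p14, 250 bases before to 50 after the gene start. They were found for 3 of the 14 lower members that have a window, ASNS, CHAC1 and SLC7A1, and for 6 of all 23 tested members with one. The remaining matches were thus in members that were not called. Of all 27305 promoters 3.67% held the letters, and of the 12623 promoters of tested genes 1.76%. The sequences of ASNS, asparagine synthetase, and of CHAC1 are given here because they carry the match in a gene of the group that was lower; the capitals mark it. In CHAC1 it lies on the other strand. From the gene start the matches begin at positions -68 and -209.
ASNS, chr7:97872423-97872522, minus strand: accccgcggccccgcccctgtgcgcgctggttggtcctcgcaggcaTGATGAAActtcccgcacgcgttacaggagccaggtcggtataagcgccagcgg
CHAC1, chr15:40953221-40953315, plus strand: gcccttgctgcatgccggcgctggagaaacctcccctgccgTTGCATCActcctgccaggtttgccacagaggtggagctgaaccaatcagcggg
A match of letters is a description and does not show that a factor binds. ASNS was at 251, 248 and 256 CPM in Rv1-WT and 90.4, 158 and 119 CPM in Rv1-Luc (-1.04, SE 0.092), with shared reads in 58.3% of libraries.

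Aminoacyl-tRNA synthetases, which load tRNAs with amino acids, lay lower without passing the fold limit. None of 13 was called, 12 had a log2 fold change under 0, and the median was -0.43; AARS1, for alanine, was at 491, 464 and 458 CPM against 304, 383 and 354 CPM (-0.44, SE 0.046). Without Rv1-Luc replicate 2, 5 of them were called. Chaperones of the endoplasmic reticulum went the other way, with 5 of 20 called higher and 1 lower and a median of 0.14. PDIA4, a disulfide isomerase, was at 504, 499.9 and 483 CPM against 784, 714 and 886 CPM (0.68, SE 0.048), and CRELD2, a secreted chaperone, at 181, 173 and 176 CPM against 332, 242 and 308 CPM (0.73). HSPA5, the chaperone BiP, was higher by 0.61 (SE 0.050), but not without Rv1-Luc replicate 3, where 4 of the 20 genes were called in all. ERN1, the stress sensor IRE1, was the lower member (-0.81, SE 0.091). With SNX631 in FBS the list had 1 gene higher and 2 lower, with a median of 0.09. In CSS it had 10 higher and 3 lower with vehicle, and 6 higher and 2 lower with SNX631. Of 17 heat shock genes 1 was higher and 2 lower in FBS with vehicle, or 17.6% called against 17.8% of all genes. HSPB1, a small heat shock protein, was higher by 0.67, which fell to 0.49 and lost its call, as SDF2L1 did, with offsets for GC content, an alternative added after the data were seen.

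Genes of sterol synthesis were nearly level between the sublines in FBS. Of 23 tested, 2 were lower and none was higher, with a median of 0.05 that became -0.02 with the GC offsets. HMGCS1, an early enzyme of the pathway, was at 792, 853 and 777 CPM against 579, 1099 and 977 CPM and was not called (0.13, SE 0.13, adjusted p = 0.423). SQLE, squalene epoxidase, was lower at -0.61 but lost its call in 8 of the alternatives tried, among them the fit without Rv1-Luc replicate 1, the fit of the 6 libraries alone, size-only scaling and GC offsets. Of 12 fatty acid genes 4 were lower and 1 higher. ME1, the malic enzyme that supplies NADPH, was at 8.52, 9.04 and 9.67 CPM against 2.35, 1.63 and 2.27 CPM (-2.12, SE 0.17), and ELOVL5, an elongase, was lower at -0.97. SCD, the stearoyl-CoA desaturase and among the most abundant transcripts of the list, was at 4892, 4966 and 4723 CPM against 1879, 3282 and 2919 CPM (-0.85, SE 0.12), and the fit of the 6 libraries alone gave it an adjusted p of 0.0425. FASN, fatty acid synthase, was not called (-0.061, SE 0.071).

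Genes that bind metals or handle foreign compounds showed few but large differences. Of 6 metallothionein and zinc genes 4 were lower and none was higher, with a median of -0.76. MT1E was at 4.35, 4.15 and 4.997 CPM against 1.34, 1.17 and 1.04 CPM (-1.92, SE 0.22), and MT1F had 20, 17 and 15 counts in Rv1-WT and 2, 2 and 3 counts in Rv1-Luc. MT2A, the most abundant metallothionein, was not called (-0.14, SE 0.090). MT1X and MT1G lost their calls when the 6 libraries were fitted alone (edgeR adjusted p = 0.0115 and 0.0201), and MT1G lost its call also without Rv1-WT replicate 3 or Rv1-Luc replicate 3. NQO1, a quinone reductase under NRF2 and the aryl hydrocarbon receptor, was at 27.1, 27.8 and 25.5 CPM against 14.04, 11.2 and 11.6 CPM (-1.12, SE 0.091). It and SLC7A11 were the called members among 13 NRF2 genes, both lower. Of 8 genes of the aryl hydrocarbon pathway, CYP1B1 was lower (-1.81, SE 0.17) and CYP1A1 higher, at 2.06, 2.01 and 2.60 CPM against 13.9, 5.24 and 6.58 CPM (1.96, SE 0.31). Both are oxidases that the receptor induces, so that 2 targets of 1 receptor differed in opposite directions; the CYP1A1 level spread widely within Rv1-Luc, and the fit of the 6 libraries alone gave it an adjusted p of 0.0259.

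Among growth factor signalling genes, 2 of 10 EGF family genes were lower and 1 was higher in Rv1-Luc. EGFR (chr7:55019021-55211628), the receptor for EGF, was at 172, 175 and 168 CPM in Rv1-WT and 70.5, 74.4 and 74.99 CPM in Rv1-Luc (-1.23, SE 0.050, adjusted p = 4.84e-29), while the related receptor ERBB4 was higher (0.66, SE 0.086). TGFA, a ligand of EGFR, was lower at -1.02, a call lost without Rv1-WT replicate 1. Of 21 immediate-early genes and targets of the kinase ERK, 7 were lower and none was higher, 20 had a log2 fold change under 0, and the median was -0.41. EGR1, an early response factor, was at 12.1, 10.9 and 12.5 CPM against 2.47, 4.28 and 3.59 CPM (-1.79, SE 0.13). DUSP6, a phosphatase that ERK induces and that switches ERK off, was at 9.99, 10.8 and 9.54 CPM against 2.55, 5.16 and 3.495 CPM (-1.44, SE 0.14), and ETV4, an ETS factor under ERK, was lower at -1.21 (SE 0.11). The sublines did not overlap at any of EGFR, EGR1, DUSP6 and ETV4, nor did they at 55.9% of all genes tested. FOS, the first gene of the list, was low in both sublines, at 3.75 ± 0.370 and 2.67 ± 0.331 CPM, and was not called (-0.49, SE 0.20).

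Genes of the Wnt pathway differed in both directions, with 3 of 20 higher, 5 lower and a median of -0.47. AXIN2 (chr17:65528563-65561647), a feedback inhibitor that beta-catenin induces, was at 36.1, 35.6 and 36.5 CPM against 161, 126 and 129 CPM (1.94, SE 0.055, adjusted p = 1.40e-36), with shared reads in 62.5% of libraries. The other higher members were LEF1, a partner of beta-catenin (0.71), and the receptor FZD7 (0.75). LGR5, the R-spondin receptor, is a beta-catenin target too but was lower, at 10.5, 8.77 and 8.44 CPM against 1.98, 1.80 and 2.13 CPM (-2.23, SE 0.15). The ligand WNT5A was at 2.76, 3.08 and 2.79 CPM against 0.526, 0.461 and 0.590 CPM (-2.44), and the receptor FZD4 was lower at -1.22. In the TGF-beta and BMP family, 5 of 18 genes were lower and 1 higher, with a median of -0.13. INHBB, an activin subunit, was at 16.3, 15.9 and 18.3 CPM against 3.28, 4.44 and 4.99 CPM (-1.996, SE 0.12), and the ligand BMP2 at 18.6, 19.5 and 19.5 CPM against 3.44, 6.37 and 4.95 CPM (-1.96, SE 0.13). The receptor BMPR1B was lower at -1.31 and the ligand TGFB2 at -1.71, from levels near 1 CPM in Rv1-WT. ID1, a classical BMP target and the only named gene of the list whose direction turned with the scaling, differed by -0.013 (SE 0.18).

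Several keratins were higher in Rv1-Luc and several mesenchymal genes lower. Of 7 keratins 4 were higher and none lower, with a median of 0.84. KRT19 (chr17:41523617-41528308), of simple epithelia, was at 144, 151 and 147 CPM in Rv1-WT and 698, 386 and 496 CPM in Rv1-Luc (1.84, SE 0.14, adjusted p = 2.01e-13), and KRT8, a luminal keratin, at 459, 433 and 445 CPM against 893, 701 and 748 CPM (0.81, SE 0.053). Shared reads touched KRT19 in 37.5% and KRT8 in 50% of libraries. KRT18, the partner of KRT8, was not called, at 459, 453 and 463 CPM against 411, 391.8 and 385 CPM. KRT7 was higher by 1.25 (SE 0.18), but not in the fit of the 6 libraries alone (edgeR adjusted p = 0.0344), and KRT15 had 0, 1 and 2 counts against 24, 8 and 8 counts, a ratio of CPM of 9.17 (95% exact interval 2.92 to 46.3). KRT15 lost its call without Rv1-WT replicate 1 or Rv1-Luc replicate 1. In all of KRT19, KRT8 and KRT7, Rv1-Luc replicate 1 was the highest library. In CSS the list did not keep this pattern: KRT19 and KRT8 were higher with vehicle and with SNX631, KRT7 was not called in either (-0.32 and -0.29), KRT80 and KRT81 were lower with SNX631, and the list medians were -0.30 and -0.16.

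Of 15 mesenchymal genes 6 were lower and 1 higher, with a median of -0.45. CDH2, N-cadherin, was at 14.4, 11.8 and 14.3 CPM against 0.486, 1.17 and 1.54 CPM (-3.68, SE 0.17), FN1, fibronectin, at 51.6, 44.5 and 37.8 CPM against 9.71, 9.22 and 9.67 CPM (-2.23, SE 0.13), and VIM, vimentin, at 14.9, 14.1 and 13.7 CPM against 5.99, 5.99 and 4.95 CPM (-1.33, SE 0.11). ZEB1, a repressor of epithelial genes, was low in both and lower in Rv1-Luc (1.97 ± 0.323 against 0.254 ± 0.0283 CPM). Each of these genes was lower in all Rv1-Luc libraries, where 55.9% of all genes tested showed no overlap of the sublines. The summed level of the 6 fibroblast markers was 15.7 to 16.7 CPM in Rv1-WT and 9.60 to 11.4 CPM in Rv1-Luc. LUM, the proteoglycan lumican, was their called member, at 7.76, 7.70 and 10.3 CPM against 3.93, 2.72 and 3.45 CPM, while the collagen gene COL1A1 was not called, at 7.58, 6.89 and 5.78 CPM against 6.56, 6.25 and 6.63 CPM, and COL1A2 had at most 2 counts per library. The part of such cells in the mesenchymal genes was not tested. E-cadherin itself, CDH1, was not called, at 316, 299 and 295 CPM against 259, 255 and 262 CPM (-0.23, SE 0.041). Junction genes had 2 of 17 higher and 2 lower, a share of 23.5% called beside 17.8% of all genes. Among them were the claudins CLDN4 (0.81), CLDN7 (-0.95, shared reads in 58.3% of libraries) and CLDN1, at 1.94, 2.61 and 1.95 CPM against 0.162, 0 and 0.272 CPM. The fourth, ESRP2, a splicing regulator of epithelial cells, lost its call without any of 4 libraries, Rv1-WT replicates 2 and 3 and Rv1-Luc replicates 1 and 3, and with GC offsets (0.59).

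Neuroendocrine genes had 2 of 17 higher and 5 lower, with a median of -0.46, or -0.37 when genes at the floor take their bound. CHGA, chromogranin A, was at 2.12, 1.94 and 2.79 CPM against 0.0405, 0.210 and 0.272 CPM (-3.70, SE 0.42), and SOX2, a factor of stem and neuroendocrine states, at 3.35, 2.74 and 4.80 CPM against 0.729, 0.629 and 0.726 CPM (-2.38, SE 0.30). The prohormone convertases PCSK1 and PCSK2 were lower with at most 7 counts in any library, and the calcium-binding protein gene SCGN was higher (0.78), but each of these 3 was called in 2 of the 6 fits without 1 library. Without Rv1-WT replicate 3 or without Rv1-Luc replicate 3, 4 genes of the list were called; CHGA, SOX2, the synaptotagmin SYT4 (-0.93) and the vesicle fusion gene SNAP25 (0.75) were called in all 6 fits. Among 11 surface antigens 1 was higher, PSCA, and 3 were lower. CEACAM6, an adhesion molecule, was at 11.2, 10.3 and 9.34 CPM against 0.890, 0.880 and 0.590 CPM (-3.69, SE 0.18), and SLC44A4, a choline transporter family member, was lower at -0.71. CEACAM5 lost its call without Rv1-WT replicate 1. Of 31 HOX genes 7 were lower and 1 higher, a share of 25.8% called beside 17.8% of all genes. HOXA10, a factor of positional identity, stood out at 48.6, 50.5 and 46.9 CPM against 9.88, 11.1 and 10.8 CPM (-2.20, SE 0.079), with shared reads in 39.6% of libraries, and the rest of the lower HOX genes either were under 1.1 CPM in both sublines or differed by at most -0.80. Of 11 cancer-testis antigens SSX2 was higher (1.42) and CTAG1B lower, the latter with a call lost without Rv1-WT replicate 2 or Rv1-Luc replicate 1. The share called was 18.2% of that list, close to the 17.8% of all genes.

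Interferon genes had 2 of 31 higher and 8 lower, with a median of -0.26. IFITM2, a membrane protein that restricts viruses, was at 6.88, 7.63 and 6.94 CPM against 1.90, 1.97 and 1.91 CPM (-1.89, SE 0.18), with shared reads in 50% of libraries. SAMD9L, an antiviral factor, had 0 counts in each Rv1-WT library and 10, 16 and 10 counts in Rv1-Luc, at least 2.62-fold higher against the floor. IFI6 and IFITM1 were low in both sublines and each lost its call without Rv1-Luc replicate 1, IFI6 also without Rv1-WT replicate 2. Among 14 genes of MHC class I presentation 1 was higher and 2 lower, a share of 21.4% called beside 17.8% of all genes. PSMB9, an immunoproteasome subunit, was at 1.47, 1.004 and 0.779 CPM against 0.364, 0.461 and 0.182 CPM (-1.67), TAP1, the peptide transporter, was lower at -0.62, a call lost without Rv1-WT replicate 3 or Rv1-Luc replicate 1, and NLRC5, the activator of these genes, was higher, from 3, 2 and 2 counts in Rv1-WT to 13, 19 and 10 counts in Rv1-Luc, a call lost without Rv1-Luc replicate 2. Of 12 NF-kappaB genes only the long noncoding RNA NKILA was called, at 23.8, 25.1 and 21.9 CPM against 49.9, 45.2 and 50.1 CPM (1.04, SE 0.075).

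Several housekeeping lists held no called gene. Histone genes are given below with the gene types. None of 17 G1/S genes, 18 mitosis genes, 19 MYC genes, 15 DNA repair genes or 74 nuclear genes of the respiratory chain was called, and their medians were 0.04, 0.09, 0.12, -0.10 and -0.04. At a BH-adjusted p under 0.05 with no fold limit 10493 of all genes pass, so small differences within these lists are not excluded. MYC, the transcription factor, was at 273, 251 and 272 CPM against 309, 278 and 280.3 CPM (0.12, SE 0.049). CDKN1A, the cell cycle inhibitor p21 and a target of p53, was higher at 117, 119 and 112 CPM against 191, 196 and 197 CPM (0.75, SE 0.049), while the p53 targets ZMAT3 (-0.62) and RRM2B (-0.60) were lower by little more than the fold limit. ZMAT3 lost its call in 4 of the alternatives tried and RRM2B in 7, among them GC offsets and size-only scaling for both and the fit without Rv1-Luc replicate 1 for RRM2B. Of 9 cyclin D and CDK inhibitor genes CDKN2B was lower at -0.63, a call lost without Rv1-WT replicate 2 or Rv1-Luc replicate 2, in the fit of the 6 libraries alone and with GC offsets. Of 23 hypoxia and glycolysis genes 3 were higher and none lower, led by ANGPTL4, an inhibitor of lipoprotein lipase, at 22.8, 22.4 and 19.5 CPM against 63.8, 42.5 and 50.5 CPM (1.28, SE 0.099). PFKFB4, the third of them beside PFKP (0.83), lost its call without Rv1-Luc replicate 1 and with GC offsets.

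Of 79 ribosomal protein genes RPL39 alone was called, at 258, 276 and 257 CPM against 106, 96.2 and 113 CPM (-1.33, SE 0.071), with shared reads in 43.8% of libraries. In the Mediator kinase module, the target of SNX631, MED12L was lower (8.94, 7.56 and 7.40 CPM against 2.75, 2.98 and 2.63 CPM, -1.52). The kinase genes CDK8 and CDK19 were not called, at 26.8 ± 0.470 against 28.5 ± 1.09 CPM and 149 ± 1.10 against 116 ± 3.81 CPM (SD, n = 3). The plot of gene lists shows metallothioneins, androgen enzymes and ATF4 genes at the low end and keratins at the high end.

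**Figure D3:**
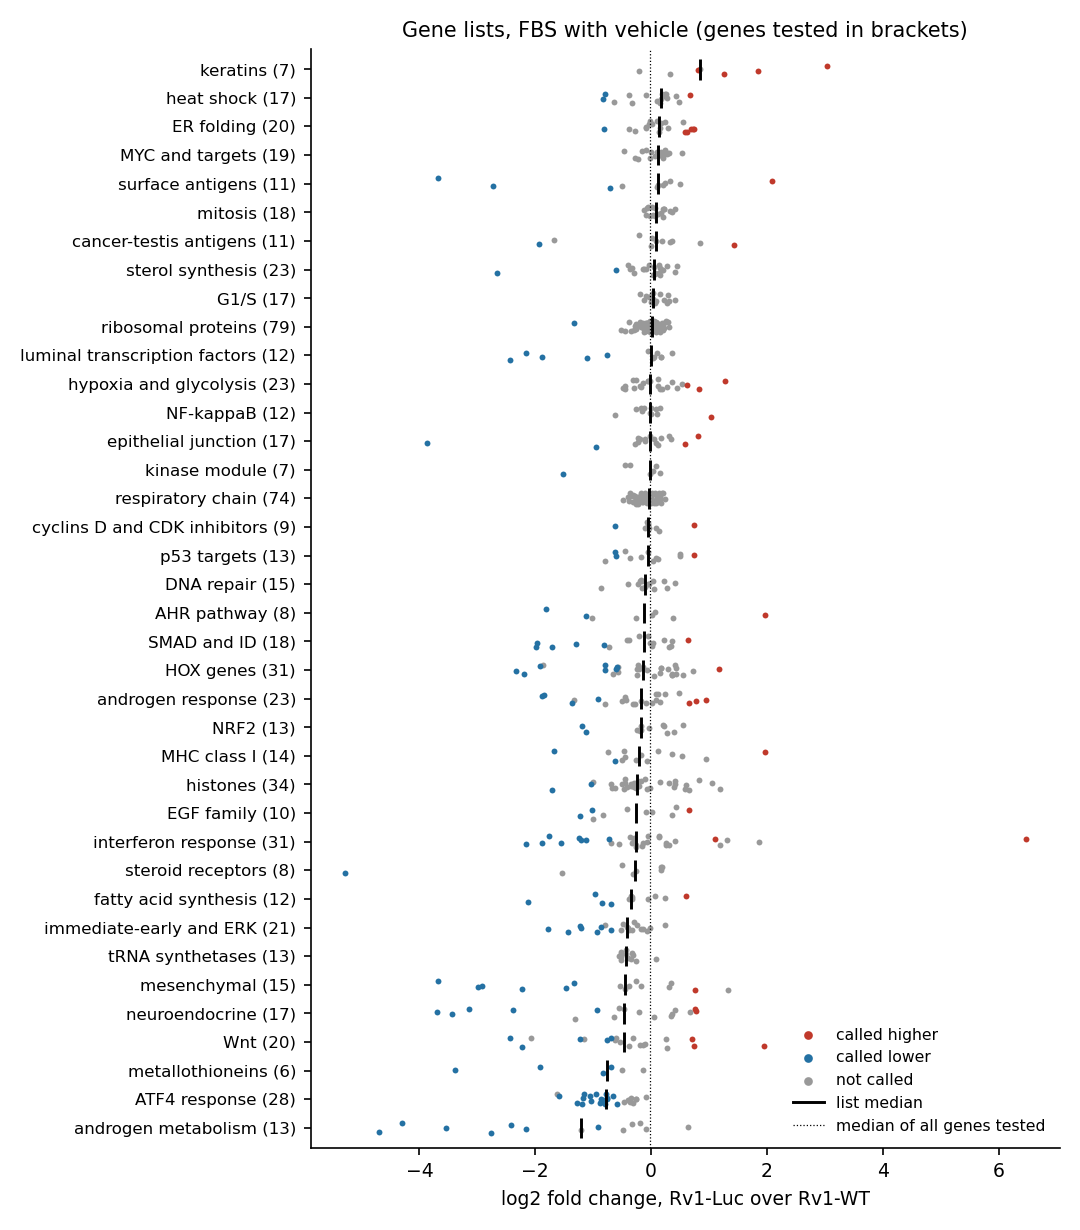
Log2 fold change of Rv1-Luc over Rv1-WT (horizontal axis) for each tested member of the gene lists, with called genes coloured, list medians as bars and the median of all genes tested, -0.02, as a dotted line. Androgen metabolism has the lowest median, -1.22, and keratins the highest, 0.84, while the mitosis, G1/S, MYC, DNA repair and respiratory chain lists hold no called gene.

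The same pair of sublines was compared in 3 other settings that share no library with the main one. With SNX631 in FBS 3665 genes (18.3%) were called, 1759 higher (8.79%) and 1906 lower (9.52%), in CSS with vehicle 6220 (31.1%) and in CSS with SNX631 5711 (28.5%). Of the 3562 genes called in FBS with vehicle, 2673 (75.04%) were called in the same direction with SNX631, which is 72.9% of the calls there, and none in the opposite direction. In CSS with vehicle 2715 (76.2%) were called in the same direction, which is 43.6% of the calls there, and 14 in the opposite direction. In CSS with SNX631 the numbers were 2744 (77.04%, or 48.05% of the calls there) and 12. In all 4 settings 2131 genes were called in 1 direction, 993 higher and 1138 lower. They include SPINK1, at log2 fold changes of -5.01, -4.88, -4.44 and -4.11 in the order of FBS with vehicle, FBS with SNX631, CSS with vehicle and CSS with SNX631, and IGFBP3, at 2.55, 2.36, 0.69 and 1.19.

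Whether the subline difference depended on serum was tested as an interaction. It was called for 1732 genes (8.65%), 923 higher (4.61%) and 809 lower (4.04%) in CSS relative to FBS, or 699 and 1048 when libraries were scaled by their size alone. Of the genes called in FBS, 462 (12.97%) were called here as well. CYP1A1 turned direction: it was at 19.9 ± 1.42 CPM in Rv1-WT and 5.31 ± 1.37 CPM in Rv1-Luc (SD, n = 3) in CSS, so that its log2 fold change went from 1.96 in FBS to -1.93 in CSS, a difference of -3.89 (SE 0.38, edgeR adjusted p = 2.75e-10). CCKBR, the gastrin receptor, was lower in FBS (-2.75) and nearly level in CSS (-0.36). LAMP3, a lysosomal membrane protein, was lower in both, by -3.56 and -6.62, and the nuclear receptor NR5A2 by -1.21 and -3.52. Among the lists, sterol synthesis depended most on serum, with 22 of 23 genes called higher in the interaction: in CSS 18 were higher and 1 lower, with a median of 1.23 against 0.05 in FBS. HMGCS1 went from 0.13 to 2.496, with levels in CSS of 194 ± 8.41 CPM in Rv1-WT and 1095 ± 103 CPM in Rv1-Luc. The ATF4 list was lower in both sera, with 26 of 28 genes lower and a median of -1.61 in CSS and 16 called lower in the interaction. GDF15, a stress cytokine and member of that list, differed by -0.080 in FBS and -2.58 in CSS. ERK targets likewise had 17 of 21 genes lower in CSS, with a median of -1.14, and 9 called lower in the interaction. The median of androgen metabolism genes was -2.46 in CSS, where 8 of 13 were lower. In the interaction, however, 2 of them were called higher and 0 lower, and their median in FBS with SNX631 was -1.90.

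**Figure D4:**
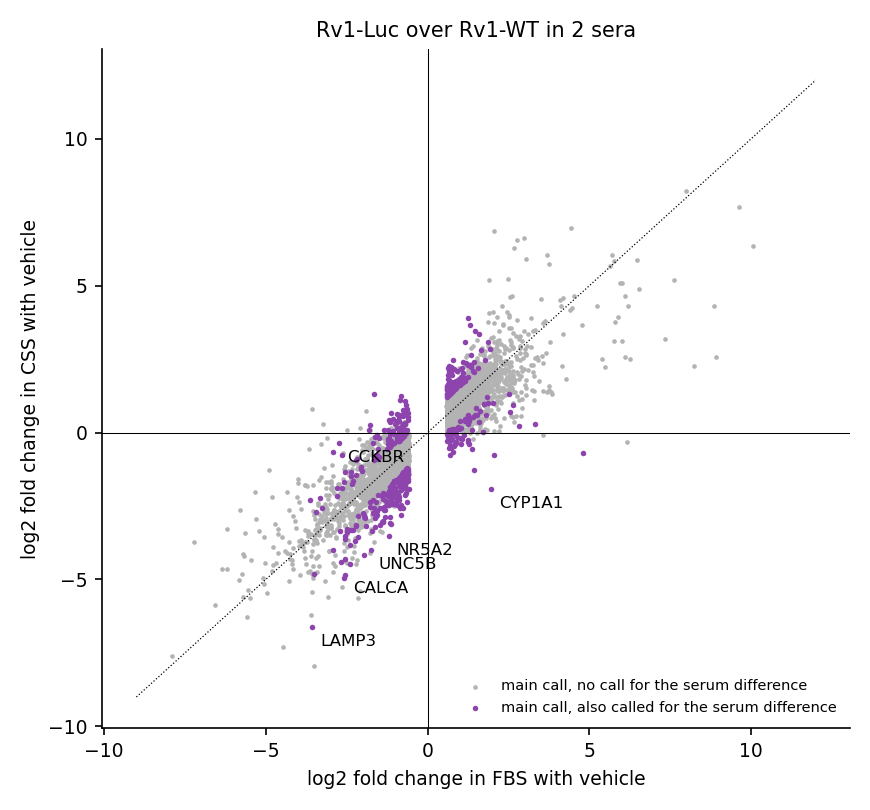
Log2 fold change of Rv1-Luc over Rv1-WT in FBS (horizontal axis) and in CSS (vertical axis), both with vehicle, for genes called in FBS. Those also called for the serum difference are in colour, and equality is a dotted line. Some of the 3562 called genes, of which 462 were called for the serum difference, are not drawn, such as any without a symbol. Most genes lie in the same quadrant in both sera, and CYP1A1 lies at 1.96 in FBS and -1.93 in CSS.

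The size and sign of the difference also varied with properties of the genes. Over 11296 protein-coding genes the Spearman correlation of log2 fold change with the GC content of the longest transcript was 0.37, given as a description since all genes share the same 6 libraries; in the other 3 settings it was 0.32, 0.46 and 0.39. The median log2 fold change ran from -0.19 in the decile of genes with 30.2% to 38.3% GC to 0.15 in the decile with 61.6% to 74.7% GC. The level of GC-rich relative to GC-poor genes was between -0.22 and -0.13 (log2) in the Rv1-WT libraries and between 0.06 and 0.30 in the Rv1-Luc libraries. With GC offsets the correlation was 0.02 and 3339 genes were called, and of the 3453 called genes with a GC value 3033 were called in the same direction. Gene types differed too: of 104 small nucleolar RNAs (snoRNAs), which guide the modification of other RNAs, 62 were higher and none lower, with a median of 1.39. Their summed level was 91.8 to 99.5 CPM in Rv1-WT and 169 to 197 CPM in Rv1-Luc. The summed level of histone genes went the other way, at 1007 to 1059 CPM in Rv1-WT and 512 to 582 CPM in Rv1-Luc. Of 34 replication-dependent histone genes tested, 2 were called lower and 0 higher, with a median of -0.25. The share called, 5.88%, was under the 17.8% of all genes. H4C3, among the 2 called, lost its call in 10 of the alternatives tried, of which 5 were fits without 1 library. Antisense genes had 207 of 1370 higher and 58 lower (median 0.27), and protein-coding genes 891 of 14717 higher and 1501 lower (median -0.06). GC offsets left the median of snoRNAs at 1.42. Chromosomes differed little, with medians over protein-coding genes from -0.17 on chromosome 18 to 0.06 on chromosome 16, or from -0.09 to 0.02 with GC offsets. The part of library preparation in these values was not tested.

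**Figure D5:**
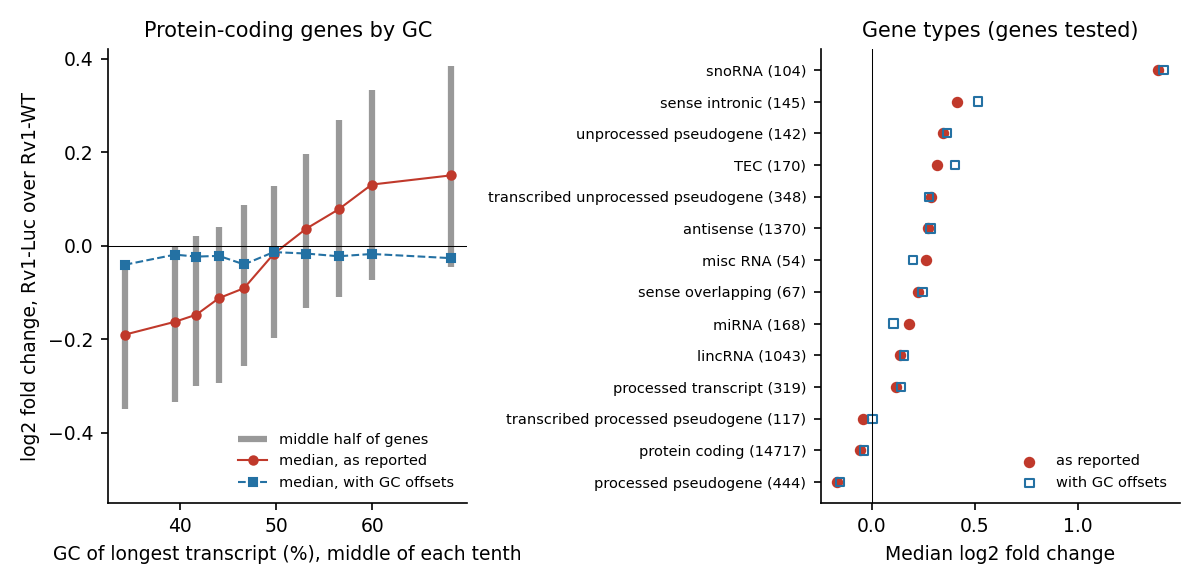
Left, median log2 fold change of Rv1-Luc over Rv1-WT (vertical axis) for deciles of protein-coding genes by GC content (horizontal axis), as reported and with GC offsets, with grey bars from the lower to the upper quartile of genes. Right, median log2 fold change (horizontal axis) by gene type; snoRNAs stand highest, at 1.39, and processed pseudogenes lowest, at -0.17.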

How the data were processed

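RNA was sequenced from cultures of 22Rv1 sublines. Per the labels, libraries were made with the NEBNext Ultra II Directional kit, which keeps the strand. The submitters' processing notes name FastQC, cutadapt 2.8, STAR 2.7.2b, and featureCounts of Subread 2.0.3, with the builds GRCh38.p13 and GRCm39. The deposited table holds expected counts of each gene, made by the authors and not scaled to depth, with 81.6% of nonzero values whole; the fractions are those of reads shared between genes, and no strand setting is given in the sources used here. No per-sample column was left unmapped (0).

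Counts were rounded to whole numbers, the transgenes were left out of totals and tests, and mitochondrially encoded genes were not analysed here. All 48 libraries entered 1 edgeR 4.0.16 fit (R 4.3.3, limma 3.58.1) of 16 groups with TMM scaling, filterByExpr (minimum count 10, total 15), robust quasi-likelihood, and 32 residual degrees of freedom; the biological coefficient of variation was 4.20%. Levels are CPM of TMM-scaled totals (transgenes and gene type sums, of unscaled totals). Tests are two-sided with Benjamini-Hochberg adjustment over all genes. Counts were simulated with a common mean per gene for all libraries and the fit's own spread, and only genes above a count limit were changed. On these the fit recovered 96% of 2-fold and 100% of 4-fold changes in this comparison, with 0 false calls over 18998 genes. The simulation does not hold the wider spread of the Rv1-Luc replicates, so it checks the procedure and not the calls. Totals limit precision for genes of few counts; intervals and floors (3 counts) cover counting error only.

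The members and lists were chosen with earlier results of these data known. Named genes are the 12 highest and 12 lowest folds (mean of at least 5 CPM, called in all 4 settings and in every fit without 1 library, shared reads in under 25% of libraries), 6 genes each way at the floor, the first and up to 4 called members of each list, the 6 largest interactions and the 12 lowest p-values. A few genes that the rule names are not reported here. Other list members given by value were chosen after their values were seen. Positions of genes are from GENCODE 29 on GRCh38, promoters from RefSeq on GRCh38.p14. Replicate numbers were checked for pairing: same-numbered libraries of the sublines correlated at 0.10, 0.16 and -0.03, so they were not taken as pairs. Alternatives were RLE, upper quartile and size-only scaling, no filter or a mean of at least 1 CPM, the 6 libraries alone, DESeq2 1.42.0, a replicate block, thinned counts, genes with shared reads left out, a test against the fold limit, an FDR of 0.05 with no fold limit, and GC offsets.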

Additional observations from a re-analysis of the deposited data

Results flagged for a closer look

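A difference between the sublines that itself differed between the sera was seen in 6 named genes under vehicle, by the interaction term of edgeR's quasi-likelihood test. As the log2 fold change of Rv1-Luc over Rv1-WT in CSS minus that in FBS, it was -3.89 for CYP1A1 (SE 0.38, adjusted p = 2.75e-10), -3.06 for LAMP3 (SE 0.52, adjusted p = 3.21e-06), 2.39 for CCKBR (SE 0.34, adjusted p = 7.31e-08), -2.32 for NR5A2 (SE 0.25, adjusted p = 2.25e-11), -2.28 for CALCA, which encodes calcitonin (SE 0.36, adjusted p = 5.73e-07), and -2.23 for UNC5B, a netrin receptor (SE 0.27, adjusted p = 1.80e-09). CALCA was at 5.37 ± 0.825 against 0.907 ± 0.135 CPM in FBS and at 19.9 ± 1.60 against 0.680 ± 0.127 CPM in CSS (Rv1-WT against Rv1-Luc, SD, n = 3), and UNC5B at 5.95 ± 0.949 against 1.76 ± 0.369 CPM and 29.8 ± 2.68 against 1.86 ± 0.321 CPM. With GC offsets the interaction was called higher in CSS for 702 genes and lower for 787. Counts thinned to the smallest library gave 780 and 690, against 923 and 809 as reported. Values of these 6 genes under those alternatives are not given here.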

How the results depend on the processing

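Under the other scalings, filters and tools tried, the count of genes called in FBS with vehicle stayed between 2479 (genes with shared reads left out) and 3662 (no filter), against 3562. A test against a 1.5-fold change called 1710, and an FDR under 0.05 with no fold limit called 10493. For the other comparisons the same 2 settings gave 1861 and 10530 (FBS with SNX631), 3635 and 13401 (CSS with vehicle), 3344 and 13024 (CSS with SNX631), and 316 and 6824 (interaction). The replicate block gave 3568 calls, and the pairing of numbers was not borne out by the libraries; among named genes, PCSK2 alone lost its call under it. Of 142 named genes called, 36 lost the call under at least 1 alternative. Genes that were not called turned sign at values near 0. ID1 was at 0.016, 0.022, 0.013, 0.031, 0.021 and 0.016 with upper quartile scaling, size-only scaling, no filter, a mean of at least 1 CPM, its own libraries and thinned counts, and at -0.30 to 0.22 without 1 library. MAGEA1 was at 0.0097 (RLE), 0.027 (upper quartile), 0.034 (size only), 0.025 (no filter), 0.042 (at least 1 CPM), 0.032 (own libraries), 0.0098 (DESeq2), 0.0089 (thinned), 0.031 (shared reads left out) and at -0.030 to 0.028 without 1 library. MCM2 was at -0.096 with GC offsets. Over the fits without 1 library HMGCS1 ran from -0.056 to 0.36 and turned without Rv1-Luc replicate 2. The causes were not tested. Depth limits the genes with a few counts, such as PCSK1, whose calls turned on single libraries.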
